A study of Homo sapiens with 21 samples.

Results

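The BTG, TOB and ZFP36 mRNA decay factors were followed in hTERT-HPNE, a pancreatic line that was immortalized but is not transformed, after DNA double-strand breaks or oxidative stress. The members were the 8 genes BTG1, BTG2, BTG3, TOB1, TOB2, ZFP36, ZFP36L1 and ZFP36L2, taken by symbol from the 23368 genes listed. The set was chosen by the difference of BTG2 between untreated cells and cells 4 h after neocarzinostatin, the largest rise of all genes there, so no member is tested in that comparison. The groups were untreated cells (time point 0), cells 4, 8 or 24 h after 300 µM H2O2, which oxidizes cell components, and cells 4, 8 or 24 h after 400 ng/ml neocarzinostatin (NCS), a radiomimetic drug that breaks DNA. Each of the 7 groups had 3 biological replicates, 21 libraries in all, from 1 cell line kept in medium with serum, puromycin and EGF. Treated cells received fresh medium together with the agent, and the labels do not say whether untreated cells did. Because the 1 untreated group was the reference at every time, the agent, any effect of a medium change and the time in culture cannot be told apart in comparisons with untreated cells. All 6 of these comparisons share the same untreated libraries.

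Poly(A)-selected RNA was sequenced, and the authors deposited rLog values, log2 read counts scaled for library size and shrunken toward each gene's mean. Differences of these values are smaller than differences of the counts, and the fold changes given here are 2 to the power of the rLog difference. The depth of each library is unknown. All 8 members were among the 19694 genes tested, and the other 3674 were at 0 throughout. Tests came from limma, with all 7 groups in one fit, and a gene is said to have risen or fallen at an adjusted p under 0.05. An exact permutation test of 3 libraries against 3 cannot give a p below 0.1. The library medians lay between 7.14 and 7.19. The 3 libraries of H2O2 at 8 h lay further from each other than those of the other groups, with mean distances over all genes of 13.1, 14.9 and 13.3 against 9.28 to 11.0 elsewhere. Replicate 2 of that group was the farthest.

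The line's labelled identity was checked against markers. Nestin (NES), for which the line is named, had a mean rLog value of 12.03, and vimentin (VIM) 17.03. Of 8 duct markers, KRT18 had a mean value of 11.6, KRT8 7.93, KRT7 6.93, MUC1 6.09 and SOX9 6.07, while KRT19 (0.60), CFTR (-1.34) and EPCAM (-1.76) were near the bottom of the scale. The acinar markers CPA1 and AMY2A and the endocrine markers GCG, SST and CHGA had means below -1.6, and PRSS1, CELA3A and INS were listed at 0 in every library. PTPRC, which marks leukocytes, was at 0.93, and the endothelial markers PECAM1 and VWF at 2.11 and 3.16. CD68, a lysosomal protein that many cell types make besides leukocytes, was at 10.1. In bulk RNA, a change in the RNA of each cell and a change in the share of cells that hold it cannot be told apart.

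Most mRNAs are degraded after their poly(A) tail has been shortened, and the CCR4-NOT complex does much of this work in the cytoplasm. BTG and TOB proteins share a domain that binds the CNOT7 and CNOT8 deadenylases of this complex, and the TOB proteins also bind the cytoplasmic poly(A)-binding protein. BTG2 and BTG1 are known as antiproliferative genes, and BTG2 is a classic target of p53. ZFP36 (tristetraprolin), ZFP36L1 and ZFP36L2 are zinc finger proteins that bind AU-rich elements in 3′ untranslated regions, such as those of cytokine mRNAs, and recruit CCR4-NOT to them. Several BTG, TOB and ZFP36 mRNAs are short-lived themselves, and ZFP36 is known to act on its own mRNA.

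All 8 genes are short protein-coding genes, and 7 of them have 2 exons in their principal transcript, while BTG3 has 5 (GENCODE v29, GRCh38). BTG2 lies at chr1:203305491-203309602 on the plus strand, and ZFP36 at chr19:39406813-39409412, also on the plus strand. BTG1 (chr12:92140278-92145897), BTG3 (chr21:17593653-17612947), TOB1 (chr17:50862223-50867978), TOB2 (chr22:41433492-41447023), ZFP36L1 (chr14:68787660-68796253) and ZFP36L2 (chr2:43222402-43226609) lie on the minus strand.

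The 3′ untranslated regions of the principal transcripts were searched on the transcript strand for TATTTAT, the DNA form of the heptamer that ZFP36 proteins prefer. It was present in 5509 of 19113 genes (28.8%). ZFP36, ZFP36L1 and ZFP36L2 had 3 copies each, BTG3 had 2, BTG1, BTG2 and TOB2 had 1, and TOB1 had none. Longer regions hold the heptamer more often by length alone. Of genes with a 3′ untranslated region within 1.25 times the 713 bases of ZFP36, 20.4% had at least 1 copy, and for the 440 bases of BTG3 the share was 12.8%. The shares were 62.4% for BTG1 (3802 bases), 54.2% for TOB2 (2819 bases) and 46.4% for BTG2 (2164 bases), which have 1 copy each. They were 40.9% for ZFP36L2 (1917 bases), 40.4% for ZFP36L1 (1871 bases) and 21.1% for TOB1 (757 bases). All of these are shares with at least 1 copy. The shares with at least 2 or 3 copies, the numbers found in BTG3 and the ZFP36 genes, were not computed. The sites of ZFP36, BTG2 and BTG3 are shown as examples of members that rose (BTG2), that fell by 24 h (BTG3) and that belong to the family which binds the heptamer (ZFP36), with it in capitals and 11 bases on each side. Sites 1 and 2 of ZFP36 lie 15 bases apart, so their windows overlap. A match is a description of the letters and not evidence of binding.
BTG2 site, chr1:203307528-203307556, plus strand: aaatgaagagcTATTTATatatattattt
BTG3 site 1, chr21:17593831-17593859, minus strand: ttggacttgagTATTTATatattgtgcat
BTG3 site 2, chr21:17593727-17593755, minus strand: cgtatgtaagtTATTTATatacaaggaaa
ZFP36 site 1, chr19:39409181-39409209, plus strand: aatgggcccttTATTTATgacgactttat
ZFP36 site 2, chr19:39409196-39409224, plus strand: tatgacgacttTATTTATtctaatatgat
ZFP36 site 3, chr19:39409221-39409249, plus strand: tgattttatagTATTTATatatattgggt

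The promoters, 250 bases before to 50 after 1 RefSeq start for each gene (GRCh38.p14), were found for 7 of the 8 members; ZFP36L2 was not among them. The RefSeq starts of all 7 lie inside the GENCODE gene spans given above, furthest downstream of the outermost start for ZFP36L1 and TOB1. They were searched on both strands for the AP-1 motif TGACTCA, the CRE motif TGACGTCA, the CArG box, the p53 site and the kappaB site. Among all 35116 promoters of this length, 4.95% held the AP-1 motif, 1.85% the CRE, 1.29% the CArG box, 0.0285% the p53 site and 5.91% the kappaB site. The p53 pattern allowed no mismatch and was found in only 10 of them. Its absence here therefore does not show that BTG2 or another member lacks a p53 site. The only member with a match was ZFP36L1, whose promoter holds a CRE, the motif of CREB and ATF factors, starting 52 bases before that RefSeq start and inside the GENCODE gene span. It is shown in capitals. As above, a match describes the letters and is not evidence of binding, and any part of the CRE in the course of ZFP36L1 was not tested.
ZFP36L1 CRE, chr14:68793450-68793479, minus strand: agtggaatgagTGACGTCAcagccgcgctc

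**Figure D1:**
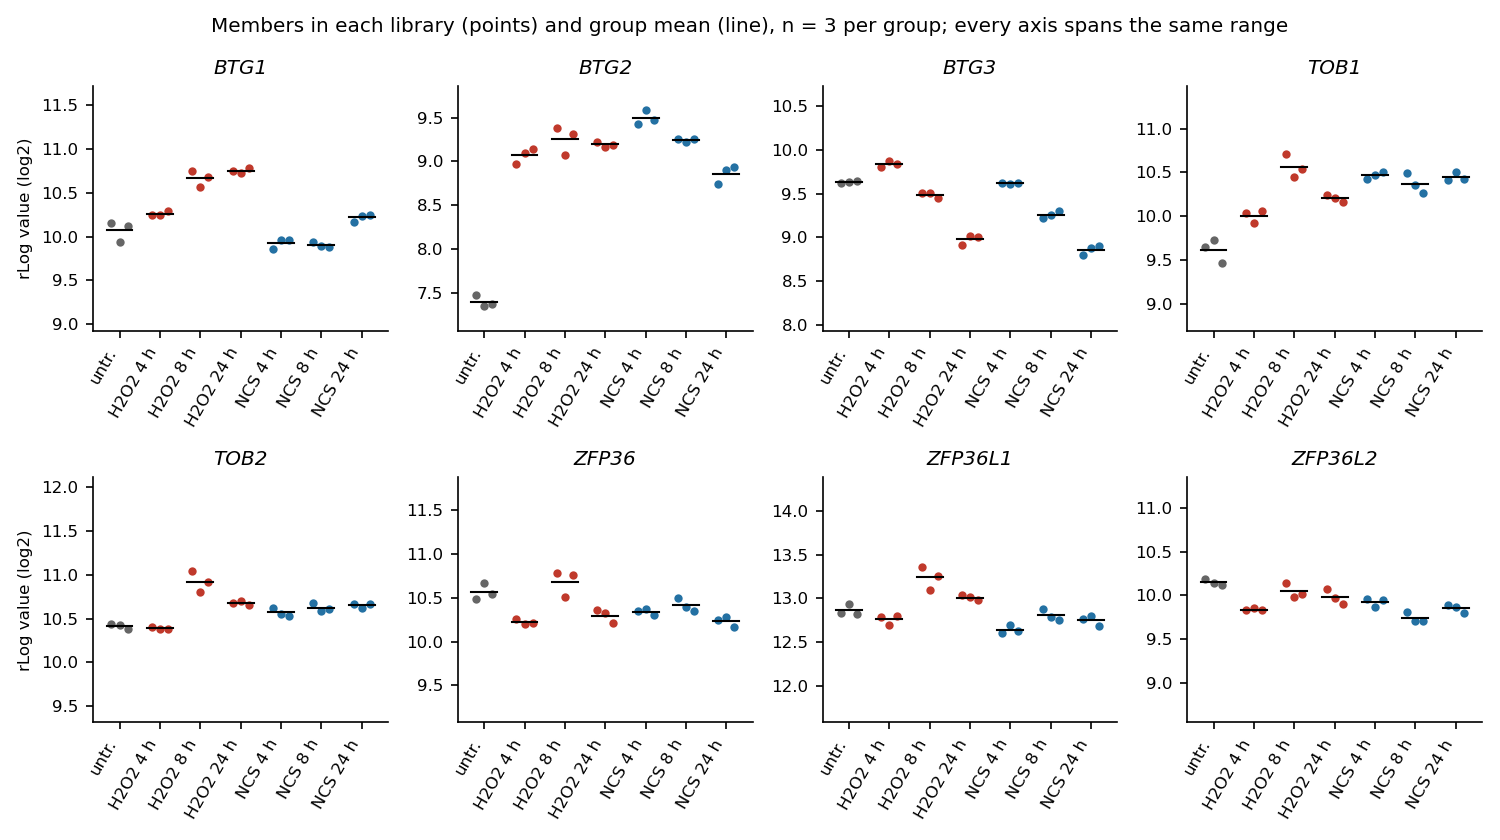
rLog values (log2) of the 8 members in each of the 21 libraries, by group, with the mean of each group of 3 as a line and the same span on every axis. BTG2 was between 7.34 and 7.47 in untreated cells and between 8.74 and 9.58 in every treated library, while the other members moved within a narrower band.

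BTG2, the antiproliferative p53 target that chose this set, was higher in every treated library than in any untreated one. In untreated cells its rLog values were 7.47, 7.34 and 7.37. After H2O2 they were 8.97, 9.09 and 9.14 at 4 h, then 9.38, 9.08 and 9.31 at 8 h and lastly 9.23, 9.17 and 9.19 at 24 h. After NCS they were 9.43, 9.58 and 9.48 (4 h), 9.25, 9.23 and 9.26 (8 h) and 8.74, 8.90 and 8.94 (24 h). The highest group was thus NCS at 4 h and the lowest treated group NCS at 24 h. The NCS 4 h rise of 2.10 (4.30-fold), which chose the gene, is given without a test. The next genes in that ranking were GDF15 (2.04), CDKN1A (1.58) and ATF3 (1.58).

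In the comparisons that the choice did not use, BTG2 rose in H2O2 by 1.68 at 4 h (SE 0.07, 3.20-fold, adjusted p = 1.24e-12 from limma), by 1.86 at 8 h (3.64-fold, adjusted p = 1.56e-12) and by 1.80 at 24 h (3.49-fold, adjusted p = 1.38e-13). The rise in NCS was 1.85 at 8 h (3.62-fold, adjusted p = 2.72e-12 from limma) and still 1.47 at 24 h (2.77-fold, adjusted p = 2.31e-12). These differences share the untreated libraries with the comparison that chose the gene. Ranked by the size of the rise among 19694 genes, BTG2 was in place 29, 13 and 7 in H2O2 at 4, 8 and 24 h and in place 2 and 4 in NCS at 8 and 24 h. It was the only member with a log2 difference over 1. Rises past that limit made up 0.655%, 0.320% and 0.325% of all genes tested in H2O2 at 4, 8 and 24 h, and 0.0660% and 0.127% in NCS at 8 and 24 h.

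The later courses of BTG2 parted. From 8 to 24 h it fell by 0.39 in NCS (SE 0.07, adjusted p = 0.000196 from limma), and the 3 libraries of each time did not overlap. In H2O2 the same step was -0.06 (95% interval -0.20 to 0.08, adjusted p = 0.528). The H2O2 minus NCS difference was 0.01 at 8 h (interval -0.13 to 0.15, adjusted p = 0.954) and 0.33 at 24 h (SE 0.07, adjusted p = 0.00128), and its change from 8 to 24 h was 0.32 (SE 0.10, adjusted p = 0.0206). Without NCS 24 h replicate 1, that change had an adjusted p of 0.0638. Between 4 and 8 h in H2O2 the rise was 0.19 with overlapping groups (adjusted p = 0.0313), and it no longer passed without H2O2 4 h replicate 1 or 2 or H2O2 8 h replicate 1 or 3 (adjusted p up to 0.178).

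TOB1, an antiproliferative protein that links CCR4-NOT to the poly(A)-binding protein, was higher than in untreated cells in all treated libraries as well, with a course in H2O2 that peaked at 8 h. Its rLog values were 9.65, 9.72 and 9.46 in untreated cells. After H2O2 they were 10.04, 9.92 and 10.05 at 4 h, then 10.71, 10.44 and 10.54 at 8 h and lastly 10.24, 10.21 and 10.17 at 24 h. After NCS they were 10.43, 10.47 and 10.50 (4 h), 10.50, 10.35 and 10.26 (8 h) and 10.42, 10.50 and 10.42 (24 h). In NCS the 3 times overlapped with each other, whereas in H2O2 they were 3 separate ranges. The H2O2 rise of TOB1 was 0.39 at 4 h (SE 0.07, adjusted p = 0.000132 from limma), 0.95 at 8 h (1.93-fold, adjusted p = 5.78e-09) and 0.59 at 24 h (adjusted p = 1.06e-06). In NCS the difference at 4 h was 0.85 (not tested), and it rose by 0.76 at 8 h (adjusted p = 1.41e-07 from limma) and 0.83 at 24 h (1.78-fold, adjusted p = 1.19e-08). It was in place 79 among the rises of H2O2 at 8 h, and in places 52 and 61 in NCS at 8 and 24 h.

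The comparison of both stresses for TOB1 changed sign with time. At 4 h it was lower in H2O2 than in NCS by a log2 difference of -0.46 (SE 0.07, adjusted p = 2.46e-05 from limma), and the groups did not overlap. At 8 h it was higher in H2O2 by 0.19 (adjusted p = 0.0376 from limma) with overlapping groups. That call was lost without H2O2 8 h replicate 1 or 3 or NCS 8 h replicate 2 or 3 (adjusted p up to 0.229). Without H2O2 8 h replicate 1 the difference was 0.12. The call was also lost after quantile normalization (adjusted p = 0.0628 from limma), in a fit of the compared groups alone (adjusted p = 0.158) and without the variance trend (adjusted p = 0.0545). At 24 h TOB1 was lower in H2O2 again, by -0.24 (adjusted p = 0.0165 from limma), which did not pass without H2O2 24 h replicate 3 or NCS 24 h replicate 2 (adjusted p up to 0.0705). The change of the difference from 8 to 24 h was -0.44 (SE 0.10, adjusted p = 0.00355 from limma).

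TOB2, the paralog of TOB1 with the same binding partners, had its highest values in H2O2 at 8 h. Its rLog values were 10.44, 10.43 and 10.38 in untreated cells, 10.41, 10.38 and 10.38 in H2O2 at 4 h, then 11.05, 10.81 and 10.91 at 8 h and lastly 10.67, 10.70 and 10.65 at 24 h. In NCS they stayed between 10.53 and 10.68 at all 3 times. Every H2O2 8 h library was above every library of the other groups. TOB2 rose in H2O2 by 0.51 at 8 h (SE 0.04, 1.42-fold, adjusted p = 3.30e-08 from limma), and at 24 h the rise was 0.26 (adjusted p = 6.14e-05). At 4 h the difference was -0.03 (interval -0.12 to 0.06, adjusted p = 0.658), and its sign turned to 0.02 after quantile normalization. In NCS the rises were 0.21 at 8 h (adjusted p = 0.00112 from limma) and 0.24 at 24 h (adjusted p = 0.000158). H2O2 and NCS differed at 4 h by -0.18 (adjusted p = 0.00178 from limma) and at 8 h by 0.30 (adjusted p = 2.41e-05), whereas at 24 h the difference was 0.02 (interval -0.07 to 0.11).

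BTG1, the close paralog of BTG2, was the member with the largest difference between the stresses among those tested, at 8 h. Untreated cells had rLog values of 10.15, 9.94 and 10.12. After H2O2 the values were 10.24, 10.24 and 10.29 at 4 h, then 10.74, 10.57 and 10.68 at 8 h and lastly 10.75, 10.73 and 10.78 at 24 h. After NCS they were 9.86, 9.96 and 9.96 (4 h), 9.93, 9.89 and 9.88 (8 h) and 10.17, 10.23 and 10.25 (24 h). At each time the H2O2 libraries were all above the NCS libraries. In H2O2, BTG1 rose by 0.19 at 4 h (SE 0.05, adjusted p = 0.00377 from limma), 0.59 at 8 h (1.51-fold, adjusted p = 2.66e-08) and 0.68 at 24 h (1.61-fold, adjusted p = 1.31e-09).

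In NCS, BTG1 stayed close to the untreated level, with small calls that depended on single libraries. It fell by 0.17 at 8 h (adjusted p = 0.0165 from limma), which did not pass without untreated replicate 1 or 3 or NCS 8 h replicate 2 or 3 (adjusted p up to 0.103). It rose by 0.15 at 24 h (adjusted p = 0.0222 from limma), which did not pass without untreated replicate 2 or NCS 24 h replicate 2 or 3. Without untreated replicate 2 the difference was 0.08 (adjusted p = 0.173). Between 8 and 24 h in NCS it rose by 0.32 (SE 0.05, adjusted p = 5.52e-05 from limma). The H2O2 minus NCS differences were 0.33 at 4 h (adjusted p = 1.87e-05 from limma), 0.76 at 8 h (1.70-fold, adjusted p = 2.89e-09) and 0.54 at 24 h (adjusted p = 2.31e-07).

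BTG3, a BTG protein with antiproliferative activity, was the member that ended furthest below its untreated level. Its values were 9.63, 9.64 and 9.65 in untreated cells. After H2O2 they were 9.80, 9.87 and 9.84 at 4 h, then 9.50, 9.51 and 9.45 at 8 h and lastly 8.92, 9.02 and 9.0 at 24 h. After NCS they were 9.62, 9.61 and 9.62 (4 h), 9.22, 9.26 and 9.30 (8 h) and 8.79, 8.88 and 8.91 (24 h). All 7 groups held separate ranges for this gene, with the highest in H2O2 at 4 h. BTG3 rose in H2O2 at 4 h by 0.20 (SE 0.03, adjusted p = 6.27e-05 from limma), then fell by 0.15 at 8 h (adjusted p = 0.00106) and by as much as 0.66 at 24 h (adjusted p = 6.25e-12). In NCS it fell by 0.38 at 8 h (adjusted p = 7.26e-08 from limma) and 0.78 at 24 h (adjusted p = 6.47e-13), to 0.584 times the untreated value. It was higher in H2O2 than in NCS by 0.22 at 4 h (adjusted p = 2.34e-05 from limma) and 0.22 at 8 h (adjusted p = 2.68e-05). The 24 h difference of 0.12 (adjusted p = 0.0140 from limma) did not pass without H2O2 24 h replicate 2 or 3 or NCS 24 h replicate 1 (adjusted p up to 0.0920). It did not pass with library medians aligned either, where BTG3 differed by 0.09 (adjusted p = 0.0672).

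**Figure D2:**
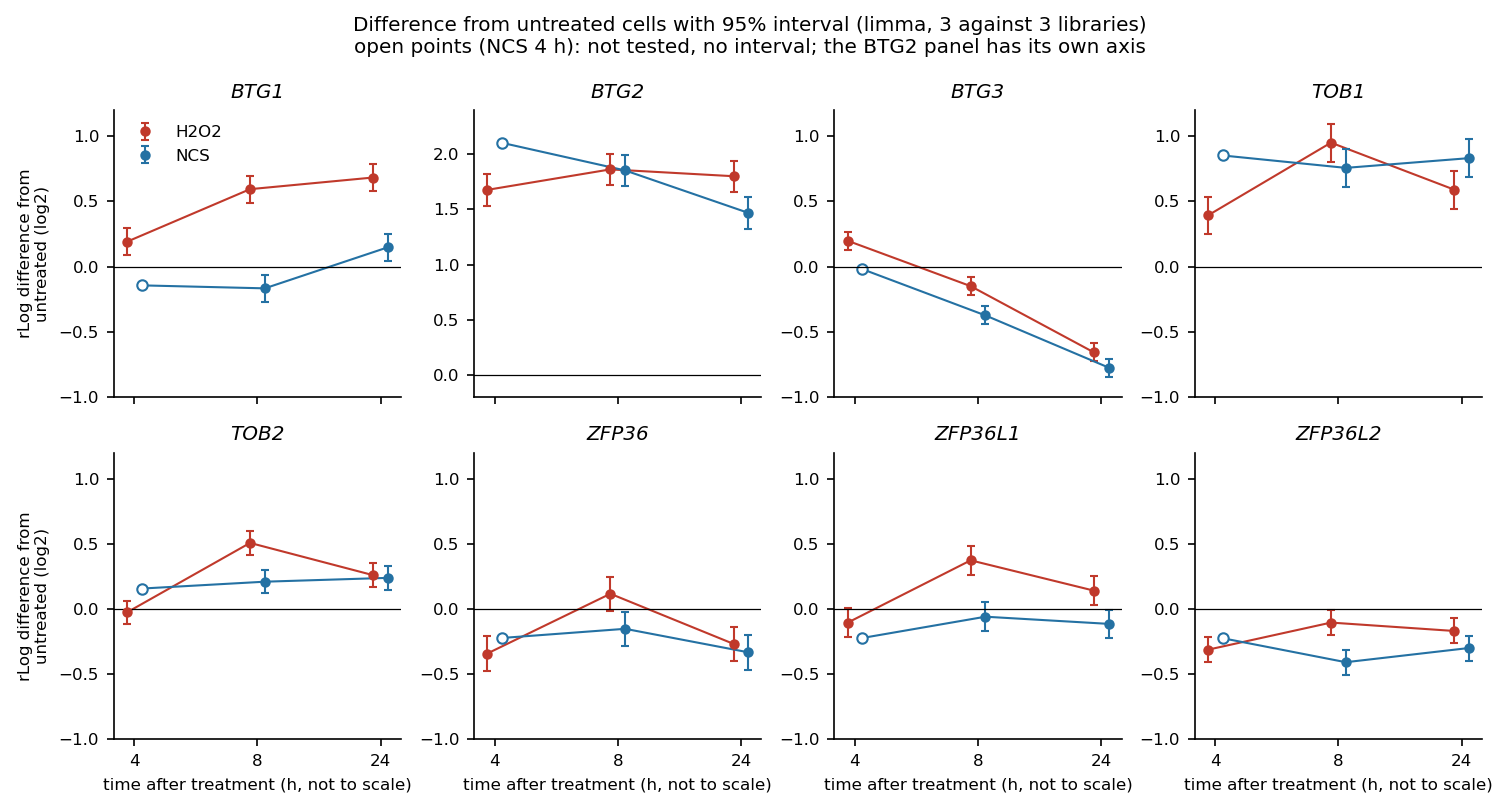
Difference of rLog values (log2) from untreated cells at 4, 8 and 24 h after H2O2 (red) or NCS (blue), with 95% intervals from limma; NCS at 4 h is open and has no interval because it was not tested. BTG2 stayed at 1.47 or more in both stresses, BTG3 declined to -0.66 and -0.78, and 6 members (all but BTG1 and BTG3) had their highest H2O2 value at 8 h.

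ZFP36, which destabilizes AU-rich cytokine mRNAs, fell in H2O2 at 4 and 24 h and in NCS at 24 h, and did not pass at 8 h in either stress. Its rLog values were 10.48, 10.67 and 10.54 in untreated cells. In H2O2 they were 10.26, 10.20 and 10.21 at 4 h, then 10.78, 10.51 and 10.76 at 8 h and lastly 10.36, 10.32 and 10.21 at 24 h. In NCS they were 10.35, 10.38 and 10.30 (4 h), 10.49, 10.40 and 10.35 (8 h) and 10.24, 10.28 and 10.17 (24 h). H2O2 at 4 and 24 h and NCS at 4 and 24 h lay below all untreated libraries. At 4 h of H2O2, ZFP36 fell by 0.34 (SE 0.06, adjusted p = 0.000192 from limma), and at 24 h it was lower by a log2 difference of -0.27 (adjusted p = 0.00178). In NCS it fell by 0.33 at 24 h (adjusted p = 0.000263 from limma), and the difference at 8 h was -0.15 (adjusted p = 0.0927), which passed with library medians aligned (adjusted p = 0.0122) or a minimum mean of 5 (adjusted p = 0.0258). At 8 h in H2O2 the difference was 0.12 (adjusted p = 0.171 from limma), and without replicate 2 of that group it was 0.20 and passed (adjusted p = 0.00498).

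ZFP36L1, a paralog of ZFP36, rose in H2O2 at 8 h. The 3 untreated libraries had 12.84, 12.94 and 12.83, and the 3 of H2O2 at 8 h 13.36, 13.10 and 13.26. At 4 h in H2O2 the values were 12.79, 12.70 and 12.80, and at 24 h 13.03, 13.01 and 12.98. After NCS they were 12.61, 12.70 and 12.63 at 4 h, then 12.88, 12.79 and 12.76 at 8 h and lastly 12.77, 12.80 and 12.69 at 24 h. Only the H2O2 groups at 8 and 24 h lay above all untreated libraries. The rise at 8 h was 0.37 (SE 0.05, 1.30-fold, adjusted p = 1.34e-05 from limma). That at 24 h was 0.14 (adjusted p = 0.0400 from limma) and did not pass without untreated replicate 1 or 3 or without any 1 of the H2O2 24 h libraries (adjusted p up to 0.133). The differences of -0.11 in H2O2 at 4 h (adjusted p = 0.110 from limma), -0.06 in NCS at 8 h (adjusted p = 0.528) and -0.11 in NCS at 24 h (adjusted p = 0.0985) did not pass. The first passed with library medians aligned (adjusted p = 0.0272), after quantile normalization (adjusted p = 0.0213) and with a minimum mean of 5 (adjusted p = 0.0457), and the last with that minimum (adjusted p = 0.0275).

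ZFP36L2, the third member of the zinc finger family in these cells, had its highest mean in untreated cells. Its values were 10.19, 10.14 and 10.12 in untreated cells. After H2O2 they were 9.83, 9.85 and 9.83 (4 h), 10.14, 9.98 and 10.02 (8 h) and 10.08, 9.97 and 9.90 (24 h). After NCS they were 9.97, 9.87 and 9.95 at 4 h, then 9.81, 9.71 and 9.71 at 8 h and lastly 9.90, 9.86 and 9.80 at 24 h. The lowest group was NCS at 8 h, and H2O2 at 8 h was the treated group that overlapped with untreated cells. At 4 h of H2O2, ZFP36L2 fell by 0.31 (SE 0.05, adjusted p = 1.69e-05 from limma), and at 24 h it fell by 0.17 (adjusted p = 0.00545). It fell in NCS by 0.41 at 8 h (adjusted p = 1.68e-06 from limma), and by 24 h it stood at -0.30 (adjusted p = 2.63e-05). In H2O2 at 8 h the difference was -0.11 (adjusted p = 0.0824 from limma), and without replicate 1 of that group it was -0.15 (adjusted p = 0.0179).

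Counted over the members, 4 of 8 (BTG1, BTG2, BTG3 and TOB1) rose in H2O2 at 4 h and 2 (ZFP36 and ZFP36L2) fell, where 26.2% of all genes tested rose and 19.7% fell. The shares of all genes given here and below include genes of low mean rLog value. No share was computed for genes at the level of the members. At 8 h in H2O2, 5 rose and 1 fell, against 18.8% and 18.6% of all genes. At 24 h in H2O2, 5 rose and 3 fell, against 20.2% and 19.9%. In NCS, 3 rose and 3 fell at 8 h, where the shares of all genes were 10.5% and 13.3%, and 4 rose and 3 fell at 24 h, where they were 19.6% and 18.4%. At 4 h in NCS, with no test, 3 members were above all untreated libraries, 4 were below and 1 overlapped; of all genes, 13.7% were above and 16.3% below. The 4 below were BTG3, ZFP36, ZFP36L1 and ZFP36L2, with differences of -0.02, -0.22, -0.22 and -0.23. BTG2, TOB1 and TOB2 were above, and BTG1 overlapped (-0.14).

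Within H2O2, the step from 4 to 8 h moved every member. BTG1, BTG2, TOB1, TOB2, ZFP36, ZFP36L1 and ZFP36L2 rose and BTG3 fell, that is 7 and 1 of 8, where 18.0% of all genes rose and 27.7% fell. The largest of these rises were 0.56 for TOB1 (SE 0.07, adjusted p = 2.81e-06 from limma), 0.53 for TOB2 (adjusted p = 1.40e-08), 0.48 for ZFP36L1 (adjusted p = 6.32e-07) and 0.46 for ZFP36 (adjusted p = 8.89e-06). BTG3 fell by 0.35 (adjusted p = 9.43e-08 from limma). From 8 to 24 h none rose and 5 fell, against 19.4% and 23.2% of all genes. The 5 were BTG3 (-0.51), ZFP36 (-0.39), TOB1 (-0.36), TOB2 (-0.25) and ZFP36L1 (-0.23), so that 4 of the genes that had risen by 8 h came down again.

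Both of these steps use the H2O2 8 h libraries, which lay further apart than those of the other groups. In every member that rose from 4 to 8 h, replicate 1 of that group was the highest of the 3 and replicate 2 the lowest. The rises are therefore not separate observations. With each library of the compared groups left out in turn, there were 6 or 7 rises from 4 to 8 h and 5 falls from 8 to 24 h. A fit of the compared groups alone gave 6 and 5, without the rise of BTG2 from 4 to 8 h (adjusted p = 0.162 from limma). In NCS, 1 of the 7 members tested rose from 4 to 8 h (ZFP36L1) and 2 fell (BTG3 and ZFP36L2), against 6.16% and 7.50% of all genes. The ZFP36L1 rise of 0.16 (adjusted p = 0.0454 from limma) did not pass without NCS 4 h replicate 1 or 3 or NCS 8 h replicate 1 or 2 (adjusted p up to 0.195). The ZFP36L2 fall of 0.18 (adjusted p = 0.00973 from limma) did not pass without NCS 4 h replicate 1 (adjusted p = 0.0517). From 8 to 24 h in NCS, BTG1 rose and BTG2, BTG3 and ZFP36 fell, where 14.9% of all genes rose and 15.0% fell. With library medians aligned 2 members rose and 3 fell, and after quantile normalization 2 rose and 2 fell. The ZFP36 fall of 0.18 (adjusted p = 0.0367 from limma) did not pass without NCS 8 h replicate 1 or 2 or NCS 24 h replicate 1 or 3 (adjusted p up to 0.162).

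**Figure D3:**
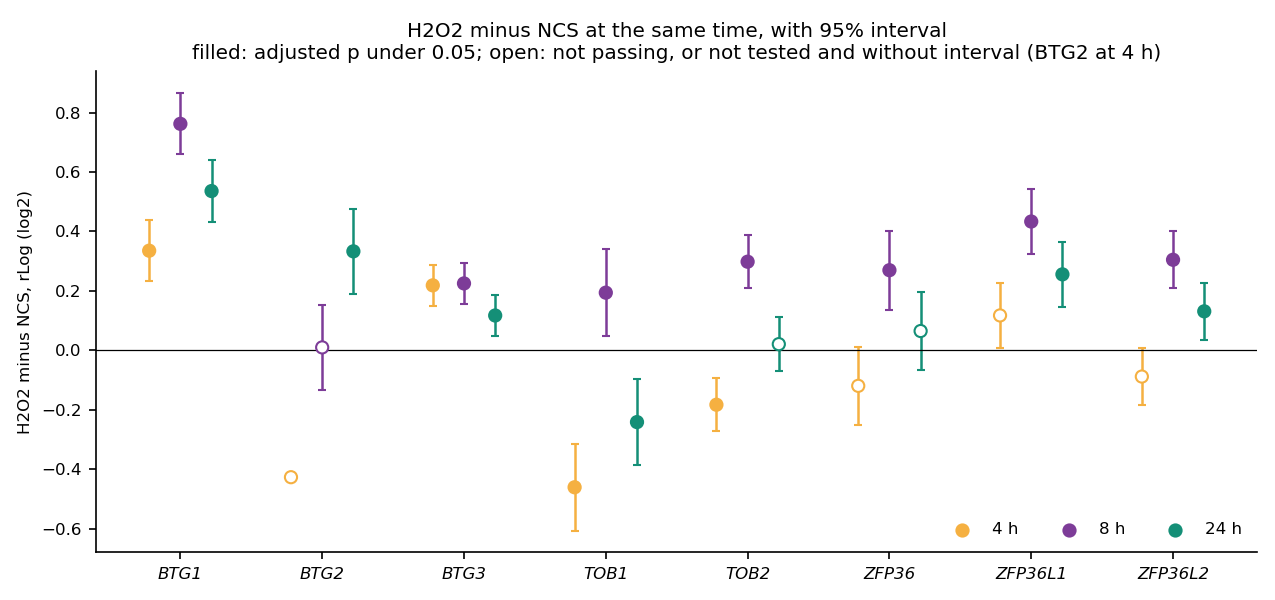
H2O2 minus NCS difference of rLog values (log2) for each member at 4 h (orange), 8 h (purple) and 24 h (green), with 95% intervals. Filled points passed an adjusted p under 0.05, and at 8 h every member but BTG2 (0.01) was higher in H2O2, BTG1 most (0.76).

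When H2O2 was set against NCS directly, 8 h was the time at which most members passed the test in the fit of all groups. At that time 7 of 8 members were higher in H2O2 and none was lower, where 18.7% of all genes were higher and 15.4% lower. The members share the same H2O2 8 h libraries here too, so these differences are not separate observations. The 3 ZFP36 family genes all belonged to the 7, with differences of 0.27 for ZFP36 (SE 0.06, adjusted p = 0.00241 from limma, and 0.0561 in a fit of these groups alone), 0.43 for ZFP36L1 (adjusted p = 3.78e-06) and 0.30 for ZFP36L2 (adjusted p = 3.83e-05). At 4 h, of the 7 members tested, BTG1 and BTG3 were higher and TOB1 and TOB2 lower in H2O2, against 26.3% and 18.0% of all genes. The 3 ZFP36 genes did not pass at 4 h in the fit of all groups. Their differences were -0.12 for ZFP36 (interval -0.25 to 0.01), 0.12 for ZFP36L1 (interval 0.01 to 0.23, adjusted p = 0.0805 from limma) and -0.09 for ZFP36L2 (interval -0.18 to 0.01). In a fit of these groups alone all 3 passed (adjusted p = 0.0120, 0.0361 and 0.0492 from limma for ZFP36, ZFP36L1 and ZFP36L2). ZFP36L1 also passed with library medians aligned (adjusted p = 0.0364), with a minimum mean of 5 (adjusted p = 0.0293) and without H2O2 4 h replicate 2 (0.15, adjusted p = 0.0480), and ZFP36L2 with a replicate block (adjusted p = 0.0372). In the fit of the compared groups alone, every member tested at 4 h thus passed. At 8 h that fit lost TOB1 (adjusted p = 0.158 from limma) and ZFP36, so more members passed at 4 h than at 8 h. BTG2 was lower in H2O2 at 4 h by 0.43, which is not tested because NCS at 4 h chose the gene.

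By 24 h, 5 members were higher in H2O2 (BTG1, BTG2, BTG3, ZFP36L1 and ZFP36L2) and TOB1 was lower, where 11.0% of all genes were higher and 10.9% lower. ZFP36L1 was higher by 0.26 (SE 0.05, adjusted p = 0.00141 from limma). The ZFP36L2 difference of 0.13 (adjusted p = 0.0480 from limma) did not pass without H2O2 24 h replicate 1 or 2 or NCS 24 h replicate 2 or 3 (adjusted p up to 0.258). With each library of the compared groups left out in turn, 3 or 4 members were higher in H2O2 at 24 h. Changes of the H2O2 minus NCS difference were tested as well. From 4 to 24 h, 3 of 7 members had a change toward H2O2 and none toward NCS, against 16.6% and 22.7% of all genes. From 8 to 24 h, 1 of 8 had a change toward H2O2 and 3 toward NCS, against 9.62% and 11.8%. After quantile normalization the counts from 4 to 24 h were 2 and 1, and with library medians aligned those from 8 to 24 h were 1 and 7.

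The members' profiles over the 21 libraries did not form one pattern. As a description, since libraries of one group share their treatment, the highest correlation between members was that of BTG2 and TOB1 (Pearson's r = 0.82). BTG1 and ZFP36L1 followed at 0.76, as did TOB1 and TOB2 at 0.76. TOB2 and ZFP36L1 had 0.71 and ZFP36 and ZFP36L1 0.70. BTG1 and BTG2 had 0.19. The most negative value was that of BTG2 and ZFP36L2 (-0.56). All correlations of BTG2 include the untreated and NCS 4 h libraries whose difference chose the gene. BTG4, the remaining BTG gene listed, lay near the bottom of the scale, with values from -0.60 to -0.53.

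Each member's profile was compared with those of all genes with a mean rLog value of at least 5. The same 21 libraries were used, among them those that chose BTG2. By Spearman correlation in place of Pearson's, none of the 3 genes named was kept for BTG1, TOB1, TOB2 and ZFP36L2, 1 was kept for BTG2, BTG3 and ZFP36L1, and 2 were kept for ZFP36. For BTG2, the 3 genes most alike were PLK3 (r = 0.97), a stress-responsive kinase, CDKN1A (0.96), which encodes the CDK inhibitor p21, and SESN1 (0.95), a sestrin. For TOB1 they were ACER2 (0.92), a ceramidase, FAS (0.92), a death receptor, and FRMD4A (0.92). For BTG1 they were PHGDH (0.98) and PSAT1 (0.98), enzymes of serine synthesis, and NARS (0.98), the asparaginyl-tRNA synthetase. For BTG3 they were RFC4 (0.98), a subunit of the replication clamp loader, XRCC2 (0.98), a homologous recombination gene, and HNRNPF (0.98), an RNA-binding protein.

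TOB2 was most like SUPT6H (0.95), an elongation factor and histone chaperone, PLEKHO2 (0.94) and RIT1 (0.93), a RAS-related GTPase. ZFP36 was most like ARID1A (0.93), a chromatin remodelling subunit, KAT7 (0.92), a histone acetyltransferase, and SETD1A (0.91), a histone methyltransferase. For ZFP36L1, LATS1 (0.95), a Hippo pathway kinase, and RREB1 (0.92) were among the 3 most alike. ZFP36L2 had the lowest top values, with STRN (0.86), TNRC18 (0.86) and SNRNP48 (0.85).

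The enzymes that the members recruit were described by lists compiled by hand. Of the 17 deadenylation genes (CCR4-NOT, PAN2-PAN3, PARN and cytoplasmic poly(A)-binding proteins), 2 rose and 6 fell in H2O2 at 4 h, 5 rose and 4 fell at 8 h and 1 rose and 9 fell at 24 h. After quantile normalization the H2O2 counts were 3 and 5 at 4 h and 2 and 7 at 24 h. In a fit of the compared groups alone, 3 rose in H2O2 at 8 h. In NCS, none rose and 6 fell at 8 h, and 1 rose (2 after quantile normalization) and 12 fell at 24 h. Of all genes, 26.2%, 18.8% and 20.2% rose and 19.7%, 18.6% and 19.9% fell in H2O2 at 4, 8 and 24 h, and 10.5% and 19.6% rose and 13.3% and 18.4% fell in NCS at 8 and 24 h. The 4 falls among 17 in H2O2 at 8 h were thus close to the share of all genes. At 24 h their median difference was -0.10 for H2O2 and -0.14 for NCS, where the median of all genes was 0.00. CNOT6L, a deadenylase of CCR4-NOT, had the largest falls at 4 h in H2O2 (-0.43, adjusted p = 1.19e-05 from limma) and at 8 h in NCS (-0.49, adjusted p = 5.23e-06). RQCD1 (CNOT9), a subunit that helps recruit the complex to its targets, fell by 0.43 in NCS at 24 h (adjusted p = 3.68e-08 from limma). PAN2, the catalytic subunit of the other cytoplasmic deadenylase, rose by 0.42 in H2O2 at 4 h (adjusted p = 3.39e-07 from limma), and TNKS1BP1, a protein associated with CCR4-NOT, rose by 0.42 in H2O2 at 8 h (adjusted p = 5.23e-08). H2O2 and NCS differed at 8 h, with 10 of the 17 higher and 2 lower in H2O2, where 18.7% of all genes were higher and 15.4% lower.

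Of 19 genes of decapping and 5′ to 3′ decay, 3 rose and 12 fell in H2O2 at 24 h and 2 rose and 12 fell in NCS at 24 h, with medians of -0.15 and -0.23. Of all genes, 20.2% rose and 19.9% fell in H2O2 at that time, and 19.6% rose and 18.4% fell in NCS, so the 3 rises in H2O2 were near the share of all genes and the falls above it. With library medians aligned, 1 rose and 12 fell in H2O2 at 24 h. LSM2, a subunit of the LSM ring, fell by 0.66 in NCS at 24 h (adjusted p = 3.87e-09 from limma), while DCP1B, an activator of decapping, rose by 0.44 in H2O2 at 24 h (adjusted p = 3.91e-07). XRN1, the 5′ to 3′ exonuclease, fell by 0.28 in H2O2 at 8 h (adjusted p = 0.000282 from limma). Of 17 genes of the exosome and 3′ to 5′ decay, 1 rose and 9 fell in H2O2 at 24 h and 3 rose and 10 fell in NCS at 24 h, and quantile normalization turned the H2O2 counts into 3 and 9. EXOSC8 (-0.78 in NCS at 24 h, adjusted p = 6.61e-13 from limma) and EXOSC2 (-0.64 in H2O2 at 24 h, adjusted p = 9.54e-12), both of the exosome core, had the largest falls of the list in these comparisons. In the 3 lists of decay enzymes, falls outnumbered rises at 24 h in both stresses. Among the members at that time, BTG1, BTG2, TOB1 and TOB2 rose and BTG3, ZFP36 and ZFP36L2 fell in both. The BTG1 rise in NCS did not pass without untreated replicate 2 (0.08, adjusted p = 0.173 from limma) or in a fit of the compared groups alone (adjusted p = 0.122).

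Of 19 other sequence-specific regulators of mRNA decay, 5 rose and 5 fell in H2O2 at 4 h, 8 rose and 7 fell at 8 h and 4 rose and 9 fell at 24 h. The 4 h counts were 1 and 7 with library medians aligned and 4 and 6 after quantile normalization. In NCS, 1 rose and 8 fell at 8 h (0 and 8 with medians aligned, 1 and 5 after quantile normalization), and 1 rose and 9 fell at 24 h (2 and 7 after quantile normalization). The rises in H2O2 at 4 and 24 h were near the shares of all genes, which were 26.2% and 20.2%, while 18.8% of all genes rose at 8 h. The shares that fell were 19.7%, 18.6% and 19.9% in H2O2 at 4, 8 and 24 h, and 13.3% and 18.4% in NCS at 8 and 24 h. Of all genes, 10.5% and 19.6% rose in NCS at 8 and 24 h. HNRNPD (AUF1), which binds AU-rich elements, fell by 0.70 in H2O2 at 24 h (adjusted p = 4.83e-14 from limma), and KHSRP, another such protein, fell by 0.68 in NCS at 24 h (adjusted p = 2.65e-12). CPEB4, which binds cytoplasmic polyadenylation elements, rose by 0.41 in H2O2 at 8 h (adjusted p = 3.27e-06 from limma). H2O2 and NCS differed at 8 h here too, with 13 of 19 higher in H2O2 and 3 lower, against 18.7% and 15.4% of all genes, so that the share lower was near that of all genes. RC3H1 (Roquin-1) had the largest of these differences (0.47, adjusted p = 1.85e-06 from limma).

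**Figure D4:**
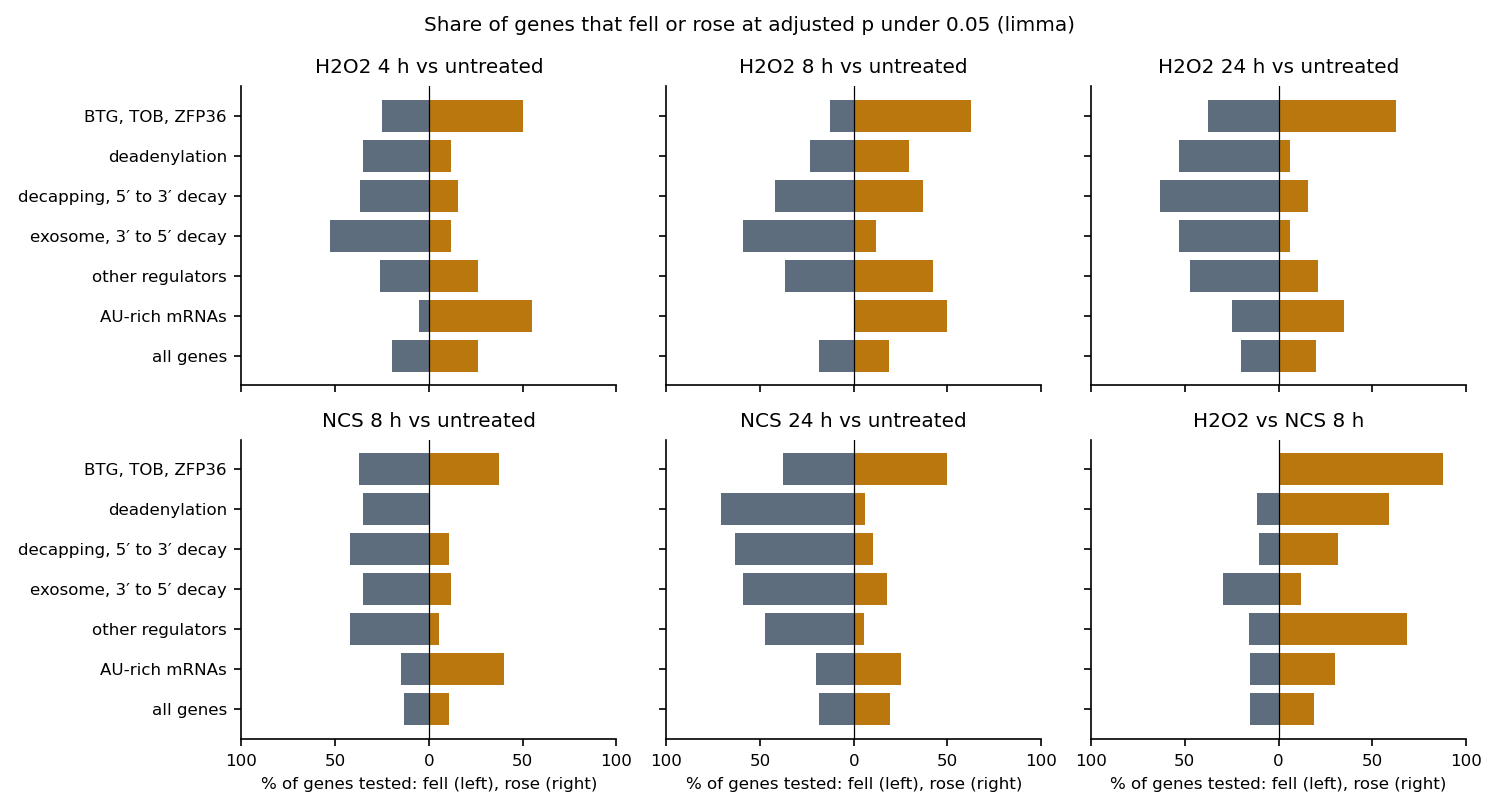
Share of tested genes (percent, x axis) that fell (left, grey) or rose (right, brown) at an adjusted p under 0.05 in 6 comparisons, for the 8 members, the 5 lists and all genes. At 24 h the deadenylation, decapping and exosome lists were mostly to the left, and in H2O2 against NCS at 8 h the bar of the members reached furthest to the right, with 7 of 8 genes.

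The mRNAs that ZFP36 proteins are known to bind were represented by 20 AU-rich mRNAs, 9 of which had a mean rLog value under 5; CCL2 was on the list as well but listed at 0 in every library. In H2O2, 11 rose and 1 fell at 4 h, 10 rose and none fell at 8 h and 7 rose and 5 fell at 24 h. The 4 h counts were 8 and 4 after quantile normalization. In NCS, 5 rose and 3 fell at 4 h, 8 rose and 3 fell at 8 h and 5 rose and 4 fell at 24 h, where 7.47%, 10.5% and 19.6% of all genes rose and 9.72%, 13.3% and 18.4% fell. For H2O2, in the same order of times, 26.2%, 18.8% and 20.2% of all genes rose and 19.7%, 18.6% and 19.9% fell. The medians were 0.11 in H2O2 at 4 h and 0.08 in NCS at 8 h, with the 9 genes of low mean, whose rLog values are strongly shrunken, among the 20.

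LIF, a cytokine of the IL6 family, had the largest rise. Its untreated values lay between 8.90 and 8.94 and those of H2O2 at 4 h between 10.75 and 10.85, a rise of 1.88 (SE 0.05, adjusted p = 1.31e-15 from limma). In NCS its values lay between 10.09 and 10.24 at 4 h, and it rose by 1.04 at 8 h (adjusted p = 1.77e-11 from limma). PTGS2, the inducible cyclooxygenase, rose by 1.23 (adjusted p = 6.69e-12 from limma), IL8 (CXCL8), a neutrophil chemokine, by 1.16 (adjusted p = 6.12e-11) and IER3, an early response gene, by 1.07 (adjusted p = 1.09e-11) in H2O2 at 4 h. In NCS at 4 h the means of PTGS2, IL8 and IER3 were 9.38, 5.46 and 11.48, against 8.56, 4.81 and 11.09 in untreated cells. ZFP36 and ZFP36L2 had fallen in H2O2 at 4 h, and the part of either in the rises named here was not tested.

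VEGFA, the angiogenic growth factor, differed between the stresses at all 3 times. In untreated cells it lay between 9.43 and 9.62, and it rose in H2O2 by 1.29, 1.22 and 1.26 at 4, 8 and 24 h (adjusted p = 3.37e-12, 3.20e-11 and 1.36e-12 from limma). In NCS at 8 h its difference was -0.10 (adjusted p = 0.242 from limma), and at 24 h it rose by 0.70 (adjusted p = 6.63e-09). H2O2 exceeded NCS by 1.45 at 4 h, 1.32 at 8 h and, less widely, 0.56 at 24 h (adjusted p = 1.07e-12, 4.76e-11 and 6.26e-07 from limma). FOS, the AP-1 subunit with a classic AU-rich element, exceeded its NCS level in H2O2 at 4 h by 1.68 (adjusted p = 1.39e-11 from limma). Its means at that time were 7.64 in H2O2 and 5.97 in NCS, above and below the untreated mean of 6.88. The FOS differences from untreated cells at 24 h were -1.02 in H2O2 (adjusted p = 4.64e-09 from limma) and -1.09 in NCS (adjusted p = 2.03e-09), both falls. BIRC3, an inhibitor of apoptosis and NF-kB target, was lower in H2O2 than in NCS at 4 h by a log2 difference of -0.81 (adjusted p = 4.65e-09 from limma). Against untreated cells at that time, BIRC3 rose by 0.76 in NCS (adjusted p = 5.53e-08 from limma) and differed by -0.05 in H2O2 (adjusted p = 0.540). PLAU, the urokinase gene, rose by 1.16 in H2O2 at 24 h (adjusted p = 1.26e-11 from limma).

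**Figure D5:**
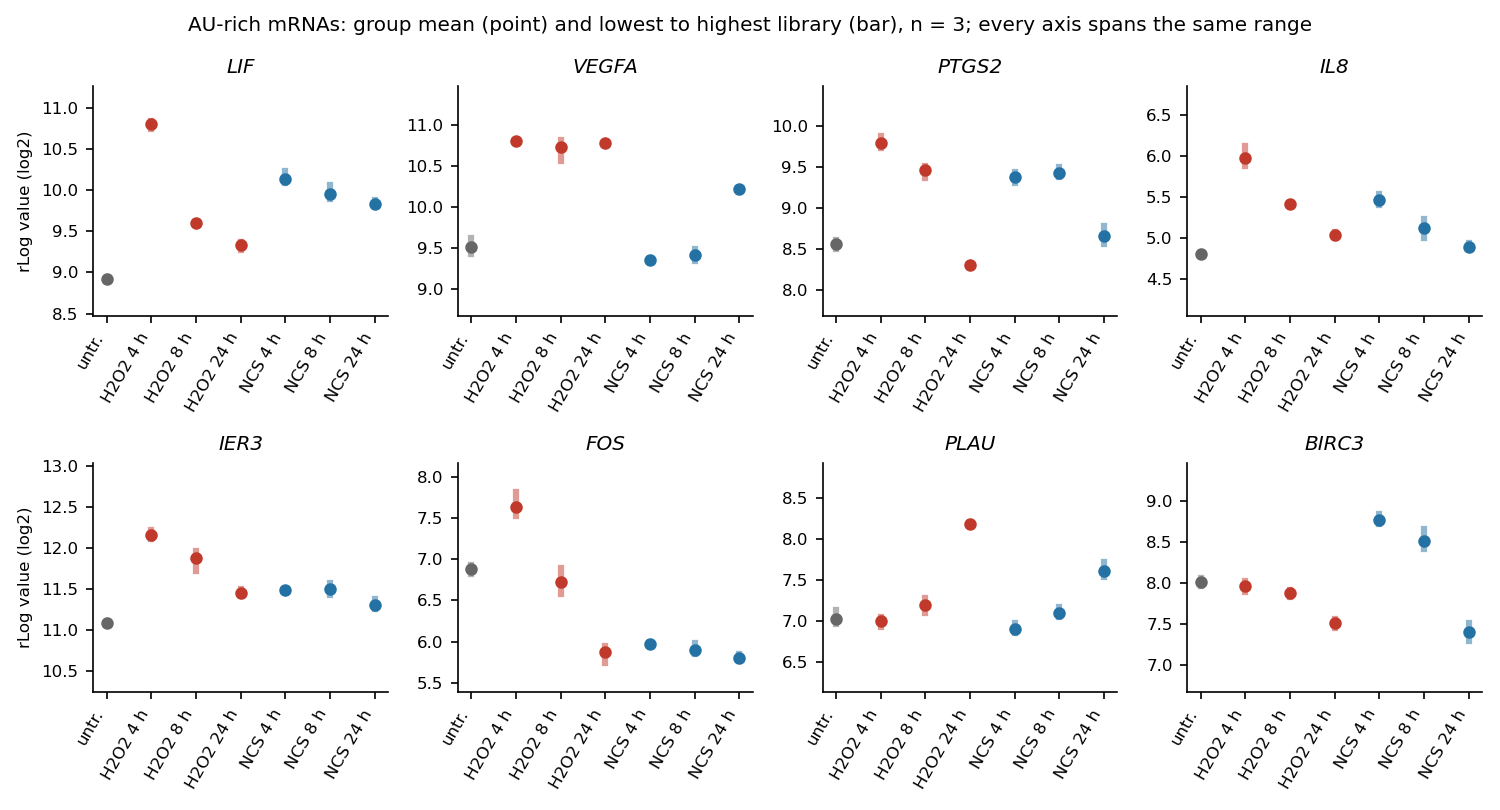
rLog values (log2) of 8 AU-rich mRNAs by group, with the group mean as a point and the range of the 3 libraries as a bar. LIF, PTGS2, IL8, IER3 and FOS were highest in H2O2 at 4 h, VEGFA stayed high in H2O2 at all 3 times, PLAU was highest in H2O2 at 24 h, and BIRC3 was highest in NCS at 4 h.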

How the data were processed

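RNA of 21 libraries, 3 biological replicates in each of 7 groups, had been prepared with a stranded mRNA kit. The authors aligned reads with HISAT2, counted them with htseq-count in Galaxy and deposited rLog values, which are log2 values from DESeq2 normalized over all libraries; the submitters' processing notes name hg19. The deposited values lay between -2.314 and 20.307. Counts were not used here, so library depth is unknown and the count test of the study was not run.

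Groups came from the labels. The 19694 genes that varied were fitted with limma 3.58.1 (R 4.3.3) with a trend of the variance on the mean. P-values were adjusted over all of them by Benjamini and Hochberg, and 95% intervals came from the same fit. The script was tested on simulated data. The 8 members and the 5 lists were chosen with earlier results of these data known, and the heptamer search was added later. Named genes of a list had a log2 difference over 1 in any of 9 comparisons or were the largest rise or fall of a comparison, and other values of these genes were picked after they were seen. For each member, the 3 genes with the highest Pearson correlation are named. A few genes that these rules select are not reported here. Gene positions and transcripts were those of GENCODE v29 (GRCh38), and promoters those of RefSeq (GRCh38.p14). The alternatives were median alignment, quantile normalization, a minimum mean of 5, a fit restricted to the compared groups, a replicate block, no variance trend, a log2 difference over 1, Spearman correlation, no minimum mean for genes alike, and each library left out in turn. Libraries were left out only from the groups of the comparison at hand.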

Additional observations from a re-analysis of the deposited data

Results flagged for a closer look

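For 7 results, the H2O2 minus NCS difference of a member changed between times by the interaction test in limma. From 4 to 24 h the difference changed toward H2O2 by 0.201 for BTG1 (SE 0.07, adjusted p = 0.0281 from limma), by 0.204 for TOB2 (SE 0.06, adjusted p = 0.0119) and by 0.220 for ZFP36L2 (SE 0.07, adjusted p = 0.0113). From 8 to 24 h it changed toward NCS by -0.226 for BTG1 (SE 0.07, adjusted p = 0.0255 from limma), -0.436 for TOB1 (SE 0.10, adjusted p = 0.00355) and -0.277 for TOB2 (SE 0.06, adjusted p = 0.00285), and toward H2O2 by 0.323 for BTG2 (SE 0.10, adjusted p = 0.0206). Both BTG1 changes were lost with several single libraries left out, with adjusted p up to 0.0719 from 4 to 24 h and up to 0.0779 from 8 to 24 h. After quantile normalization the 4 to 24 h changes of ZFP36L2 (0.17, adjusted p = 0.0538) and BTG1 (0.16, adjusted p = 0.0876) did not pass. The BTG2 change was lost without NCS 24 h replicate 1 (adjusted p = 0.0638). Without H2O2 8 h replicate 2, the 8 to 24 h changes of ZFP36 (-0.29, adjusted p = 0.00547), ZFP36L1 (-0.25, adjusted p = 0.00629) and ZFP36L2 (-0.20, adjusted p = 0.0294) passed as well.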

How the results depend on the processing

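The direction of every member with an adjusted p under 0.05 in the comparisons with untreated cells was kept under all the alternatives run, and so was that of every such member between H2O2 and NCS. With a log2 difference over 1 required, 1 member rose (BTG2) and 0 fell in each comparison with untreated cells that was tested. Of the members tested between H2O2 and NCS, 0 differed. Same-numbered libraries were not paired by the data (mean correlation of their deviations 0.03 against -0.01 for other pairs). With a replicate block, 2 members fell in H2O2 at 8 h (1 without it) and 2 rose in NCS from 8 to 24 h (1 without it), and the other counts of members stayed within 1.5 times of those without it. The block also gave 2 rises of exosome genes in H2O2 at 24 h (1 without it) and 1 fall of AU-rich mRNAs in H2O2 at 8 h (0 without it).

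Between H2O2 and NCS at 24 h, 3 members were higher in H2O2 with medians aligned, after quantile normalization and in a fit of the compared groups alone, where 5 had been. In that last fit, 4 were lower in H2O2 at 4 h (2 otherwise). In NCS from 8 to 24 h, 2 rose (1 otherwise) with medians aligned, after quantile normalization and with a minimum mean of 5. That minimum gave 2 falls in H2O2 at 8 h (1 otherwise). The change from 4 to 24 h was toward H2O2 in 5 members with the minimum mean and in 6 in a fit of the compared groups alone (3 otherwise), and toward NCS in 1 after quantile normalization (0 otherwise). The change from 8 to 24 h was toward NCS in 7 members with medians aligned and in 6 with the minimum mean (3 otherwise). Without the variance trend, 0 rose in NCS from 4 to 8 h (1 otherwise).

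The signs that turned belonged to values that had not passed. TOB2 in H2O2 against NCS at 24 h was -0.00527 with medians aligned (adjusted p = 0.937), and in H2O2 at 4 h it was 0.0199 after quantile normalization (adjusted p = 0.756). BTG2 in H2O2 from 8 to 24 h was 0.00086 without H2O2 8 h replicate 1, with a range of -0.151 to 0.00086 over libraries left out. Between H2O2 and NCS at 8 h it was -0.0533 without H2O2 8 h replicate 1, -0.0170 without H2O2 8 h replicate 3 and -0.00057 without NCS 8 h replicate 2, with a range of -0.0533 to 0.0989.

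With 1 library of the compared groups left out at a time, counts of members ranged as follows. Rises lay between 5 and 6 in H2O2 at 8 h, 4 and 5 in H2O2 at 24 h, and 3 and 4 in NCS at 24 h; falls lay between 1 and 2 in H2O2 at 8 h and 2 and 3 in NCS at 8 h. Members higher in H2O2 than in NCS numbered between 2 and 3 at 4 h, between 6 and 7 at 8 h, and 3 or 4 at 24 h, when 0 or 1 were lower. Between times, 6 to 7 rose in H2O2 from 4 to 8 h, 0 to 1 rose and 1 to 2 fell in NCS from 4 to 8 h, and 1 to 2 rose and 2 to 3 fell in NCS from 8 to 24 h. Changes toward H2O2 numbered 2 to 3 and toward NCS 0 to 1 from 4 to 24 h, and 0 to 1 and 2 to 6 from 8 to 24 h. Among the lists, the minimum mean gave the same 2 changes as the block and moved other counts as well. Between H2O2 and NCS at 24 h, 0 deadenylation genes were lower in H2O2 (1 otherwise). Of the other regulators, 5 were higher and 1 lower in that comparison (3 and 2 otherwise), and 2 rose in NCS at 4 h (1 otherwise). A fit of the compared groups alone gave 2 rises of deadenylation genes in H2O2 at 24 h (1 otherwise) and 0 of other regulators in NCS at 8 h (1 otherwise). With Spearman correlation, 0 to 2 of the 3 genes most alike were kept for each member, and with no minimum mean all 3 were.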
